A study of Mus musculus with 21 samples.

Results

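Hearts under pressure overload that received an inhibitor of either of a pair of cyclic GMP phosphodiesterases were compared with hearts under overload alone. The comparison takes 16 of the 21 libraries of the study: the 5 of mice with TAC and the PDE5A inhibitor Sildenafil (PDE5A-I) and the 6 of mice with TAC and the PDE9A inhibitor PF-04449613 (PDE9A-I), pooled as 11 inhibitor hearts, and the 5 of mice with TAC and no drug. The members were chosen by their labelled drug alone. TAC is transverse aortic constriction, a surgical narrowing of the aorta that loads the left ventricle, and all 16 hearts carry it; 5 sham-operated hearts without a drug serve as a second point of comparison. All mice were C57BL/6J, the tissue was left ventricle myocardium, and each library came from its own animal with its own ear tag. Drug was given over 4 weeks, begun 1 week after surgery. The sources used here do not give doses, a vehicle for the untreated mice, or the animals' age and sex. No sham group with an inhibitor was analysed here, so an effect of a drug without overload was not measured.

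Cyclic GMP is a second messenger made in heart muscle by the receptors of the natriuretic peptides and by the guanylate cyclase that nitric oxide activates. Its main effector there is protein kinase G (Prkg1), which is known to restrain hypertrophic signalling in overloaded heart muscle. PDE5A is known mainly to break down the pool made by the nitric oxide-stimulated cyclase, and PDE9A the pool made by natriuretic peptide receptors, so the comparison asks which transcripts move alike when either pool is spared.

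Total counts per library ran from 24.3 to 36.5 M in inhibitor hearts, 22.7 to 30.5 M in TAC hearts and 25.9 to 40.99 M in sham hearts. Heart muscle markers were abundant in every library: the summed level of 12 cardiomyocyte markers was 142362 to 218047 counts per M (CPM) in inhibitor hearts, 128595 to 185399 CPM in TAC hearts and 185713 to 219908 CPM in sham hearts. A principal component analysis of the 16 overloaded hearts put 37.5% of the variance on its leading axis, with Nmrk2, Chil1, Ltbp2 and Sprr1a at its high end. Inhibitor hearts spread from -40.97 to 22.6 on that axis with a median of -5.17, and TAC hearts from -20.4 to 35.9 with a median of 12.6, so the groups overlapped. PDE9A-I libraries 1 and 4 stood apart on the second component (14.4% of the variance), with scores of 33.4 and 26.3. They also had the highest shares of counts on the ribosomal RNA gene Rn45s, 0.326 and 0.416%, against 0.238 to 0.278% in TAC hearts; without these 2 libraries the comparison again called no gene. The ear tags fall into the 100s, 500s and 600s, which the labels do not explain: the 100s hold 1 inhibitor heart and 2 TAC hearts, the 500s hold 6 and 1, and the 600s hold 4 and 2. Of the sham hearts, 3 are in the 100s, 0 in the 500s and 2 in the 600s.

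No transcript separated the pooled inhibitor hearts from TAC hearts after adjustment. Of 14135 genes tested with edgeR's quasi-likelihood test, 0 were called higher and 0 lower at an adjusted p under 0.05 (0% of genes in each direction), and the lowest adjusted p, that of Stmn2, was 0.158. Before adjustment, 594 genes were higher (4.2%) and 661 lower (4.68%) at p under 0.05, 1255 in all (8.88%), where 706.75 would be met if no gene differed. DESeq2 called 3 genes (0.0212%): Ppargc1b higher (0.00707%), and Stmn2 and Atp6v1c1 lower (0.0141%). The count at an unadjusted p rested on single TAC libraries: it was 597 without TAC library 4, 783 without TAC library 3 and 2258 without TAC library 2. The median log2 fold change over all genes was 0.0054, and 90% of genes lay between -0.30 and 0.33, with a median standard error of 0.10.

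**Figure D1:**
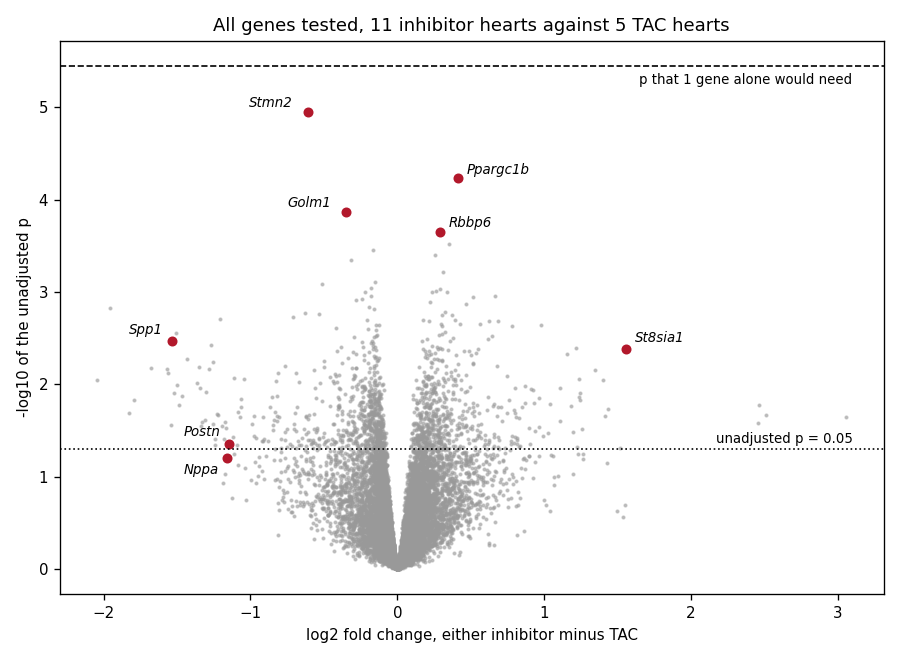
Each of the 14135 points is a gene, with its log2 fold change (either inhibitor minus TAC, 11 against 5 hearts) across and -log10 of its unadjusted edgeR p upward; red points are named. No point reaches the dashed line, the p of 3.54e-06 that 1 gene alone would need, and Stmn2, Ppargc1b and Golm1 lie highest.

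The stricter question, which genes differ from TAC with each inhibitor by itself and in the same direction, was put by taking for each gene the larger p of both single-drug comparisons. It called 0 genes (0%), with 208 at an unadjusted p under 0.05 (1.47%), 95 higher (0.672%) and 113 lower (0.799%); DESeq2 called 0 as well. Both single-drug comparisons use the same 5 TAC libraries, so a chance deviation of a gene in those libraries enters both with the same sign. With PDE5A-I alone 2 genes (0.0141%) rose against TAC, among them St8sia1, a sialyltransferase of ganglioside synthesis (log2 fold change 2.22, SE 0.361, adjusted p = 0.0337). With PDE9A-I the value of St8sia1 was 0.54 and did not pass. With PDE9A-I alone 1 gene (0.00707%) fell, the B cell receptor subunit Cd79a (-1.62, SE 0.247, adjusted p = 0.0286), whose PDE5A-I value was -0.28. The inhibitor groups differed from each other in 1 gene (0.00707%), Cd79b, the partner subunit, at 1.41 in PDE5A-I minus PDE9A-I hearts (adjusted p = 0.00591). Before adjustment 731 genes (5.17%) differed from TAC with PDE5A-I and 2061 (14.6%) with PDE9A-I, and DESeq2 called 8 (0.0566%) and 33 (0.233%), with 35 (0.248%) between the inhibitors. These counts rested on single libraries. The PDE5A-I count was 1 without TAC library 1, PDE5A-I library 2 or PDE9A-I library 3, and 0 without TAC library 2, 3, 4 or 5, PDE5A-I library 3, 4 or 5, or PDE9A-I library 2 or 6. The PDE9A-I count was 46 without PDE9A-I library 2 and 2 without PDE5A-I library 5; it was 0 without any single TAC library, without any other single PDE9A-I library, and without PDE5A-I library 3 or 4. The count between inhibitors was 8 without PDE5A-I library 1, 3 without TAC library 4, and 2 without PDE5A-I library 2 or PDE9A-I library 1 or 3. Cd79b was named after its values were seen.

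Stmn2, which encodes a stathmin that destabilises microtubules and is best known in neurons, had the lowest p of all genes (chromosome 3, 8509360 to 8561606, plus strand, GRCm38). It had 3.55, 3.02, 3.98, 4.09 and 3.88 CPM in PDE5A-I hearts, between 3.09 and 4.02 CPM with a median of 3.79 CPM in the 6 PDE9A-I hearts, and 5.53, 4.63, 5.75, 7.13 and 5.04 CPM in TAC hearts. All 11 inhibitor hearts lay below the lowest TAC heart, and the level in sham hearts was 3.59 ± 0.644 CPM (SD, n = 5). The log2 fold change was -0.61 (SE 0.107, 95% interval -0.83 to -0.39, adjusted p = 0.158 by edgeR and 0.00111 by DESeq2). It was -0.60 with PDE5A-I and -0.62 with PDE9A-I, and the test of the difference between the inhibitors gave an unadjusted p = 0.922 (edgeR). Within the ear tag series of the 100s, 500s and 600s the difference in mean log2 CPM was -0.70, -0.68 and -0.58. The leave-one-out values ran from -0.67 to -0.51. Stmn2 rose in TAC hearts against sham hearts (0.65, adjusted p = 0.00349, edgeR), a contrast that uses the same TAC libraries, and inhibitor hearts, at 0.041 against sham, did not pass (adjusted p = 0.820). Of 7 tested markers of Schwann cells, the glia of cardiac nerves, 5 were above 0 in inhibitor minus TAC hearts, with a median of 0.33, while the summed level of the 8 listed was 33.4 to 57.2 CPM with a median of 42.9 in inhibitor hearts and 40.2 to 52.5 CPM with a median of 46.7 in TAC hearts. Their part in the Stmn2 value was not tested.

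Ppargc1b encodes PGC-1 beta, a transcriptional coactivator of mitochondrial and fatty acid oxidation genes, and had the lowest p among genes with higher levels. It had 32.95, 34.5, 27.4, 29.1 and 35.5 CPM in PDE5A-I hearts, between 25.3 and 38.02 CPM with a median of 34.7 CPM in the 6 PDE9A-I hearts, and 24.5, 25.7, 23.98, 22.9 and 26.3 CPM in TAC hearts. All inhibitor hearts except PDE9A-I heart 2 lay above the highest TAC heart, and sham hearts averaged 33.3 ± 3.13 CPM. The log2 fold change was 0.41 (SE 0.0830, 95% interval 0.24 to 0.59, adjusted p = 0.412 by edgeR and 0.0113 by DESeq2), 0.37 with PDE5A-I and 0.45 with PDE9A-I. Within the ear tag series it was 0.50, 0.45 and 0.38. In a contrast that uses the same TAC libraries, Ppargc1b fell in TAC hearts against sham hearts (-0.43, adjusted p = 0.00557, edgeR); in inhibitor hearts the value against sham was -0.019 (adjusted p = 0.889).

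Atp6v1c1, which encodes the C subunit of the proton pump that acidifies lysosomes and endosomes (chromosome 15, 38661933 to 38692446, plus strand, GRCm38), differed by little but with a narrow spread. It had 50.5, 53.1, 56.1, 53.7 and 49.8 CPM in PDE5A-I hearts, between 49.6 and 55.1 CPM with a median of 51.8 CPM in the 6 PDE9A-I hearts, and 59.4, 59.2, 56.3, 59.8 and 57.6 CPM in TAC hearts. No inhibitor heart reached the lowest TAC heart, and the log2 fold change was -0.16 (SE 0.0385, adjusted p = 0.556 by edgeR and 0.0498 by DESeq2). Golm1, a Golgi membrane protein (chromosome 13, 59634626 to 59675811, minus strand), had 13.2 to 18.2 CPM in the 11 inhibitor hearts with a median of 15.1, against 18.7, 17.8, 21.1, 23.1 and 17.9 CPM in TAC hearts; 10 of the 11 inhibitor hearts were below every TAC heart (-0.35, SE 0.0759, adjusted p = 0.556). Rbbp6, a ubiquitin ligase that binds the retinoblastoma protein (chromosome 7, 122965686 to 123002557, plus strand), had 44.8 to 63.02 CPM in the 11 inhibitor hearts with a median of 53.8, against 43.2, 46.2, 42.3, 41.7 and 43.5 CPM in TAC hearts; 10 of the 11 were above every TAC heart (0.29, SE 0.0658, adjusted p = 0.556). Levels with PDE5A-I and with PDE9A-I overlapped in these 3 genes.

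**Figure D2:**
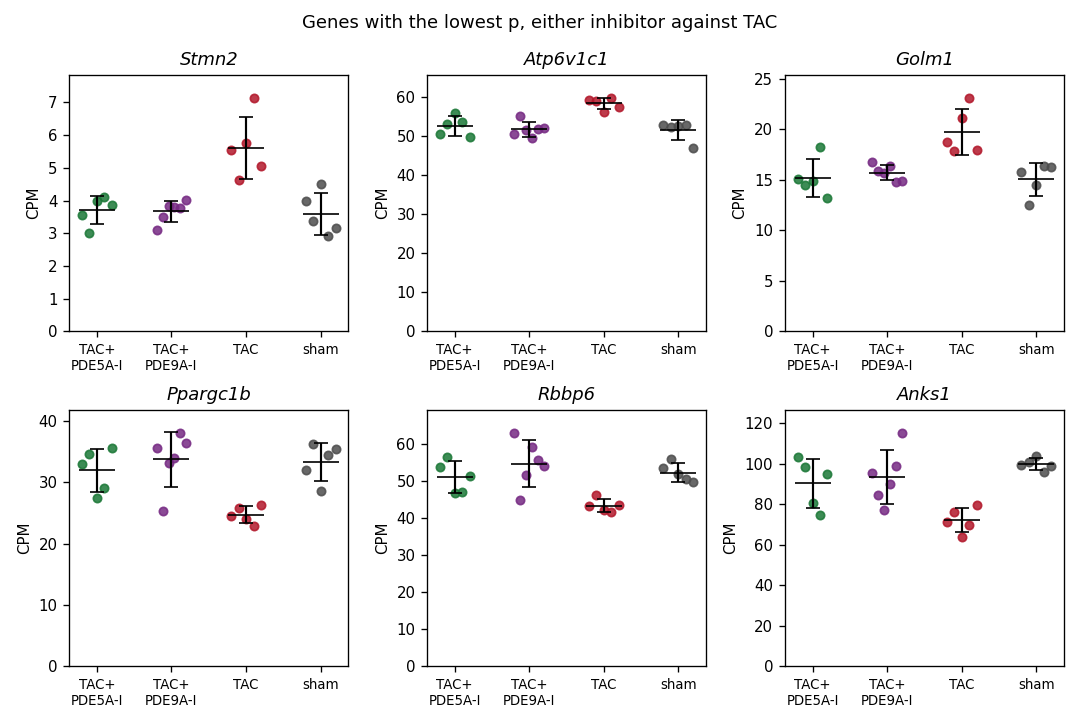
CPM in each heart for Stmn2, Atp6v1c1, Golm1, Ppargc1b, Rbbp6 and Anks1 in PDE5A-I, PDE9A-I, TAC and sham hearts; points are animals, bars are the mean and SD, and axes start at 0. The inhibitor groups sit beside each other and near sham in each panel, and TAC hearts are higher in the upper row and lower in the lower row; none of the 6 genes passed edgeR's adjusted test.

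The rest of the 20 genes chosen for the lowest p, 10 a direction, had adjusted p = 0.556 throughout (edgeR) and are given as values. Lower in inhibitor hearts were a pair of subunits of the ESCRT-III membrane-cutting complex, Chmp4b (94.6 ± 5.41 CPM in inhibitor hearts and 107 ± 7.63 CPM in TAC hearts; log2 fold change -0.18) and Chmp3 (74.5 ± 6.38 CPM in inhibitor hearts and 88.04 ± 7.90 CPM in TAC hearts; -0.24). Also lower were Gins4 of the replicative helicase (-0.18), the polymerase zeta subunit Mad2l2 (-0.31) and the AAA ATPase Ruvbl1 (-0.22). The lipid phosphatase gene Tmem55a (-0.15) and Klhl6, a kelch protein known from B cell signalling (12.7 ± 2.33 CPM in inhibitor hearts and 18.05 ± 4.14 CPM in TAC hearts; -0.51), completed the lower 10. Klhl6 stood above sham in inhibitor hearts too, where it rose by 0.43 (adjusted p = 0.0404, edgeR). Against TAC it was -0.40 with PDE5A-I and -0.61 with PDE9A-I.

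Higher in inhibitor hearts were Anks1, an adaptor of Eph receptors (92.03 ± 12.2 CPM in inhibitor hearts and 72.03 ± 5.94 CPM in TAC hearts; log2 fold change 0.35), the ubiquitin ligase Trim25 of antiviral signalling (0.26) and Mlxip, the glucose-sensing transcription factor MondoA (52.7 ± 5.66 CPM in inhibitor hearts and 42.5 ± 2.34 CPM in TAC hearts; 0.31). Ttc7 (0.29), the zinc finger gene Zfp319 (0.27), the Rac exchange factor Dock4 (0.24), the ciliary rootlet gene Crocc (0.34) and the clamp loader subunit Chtf18 (0.52) followed. In 9 of these 10 genes, Ppargc1b and Rbbp6 included, at least 9 of the 11 inhibitor hearts lay above the highest TAC heart, and in Dock4 8 did. Since the genes were picked for a low p, this separation is a description. By the choice of these genes their levels in the 5 TAC libraries were low, so their TAC minus sham values, which use the same libraries, are not independent of it: 8 of the 10 passed edgeR's adjusted test as lower in TAC hearts, where 12.5% of all genes did.

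Complete separation of the 11 inhibitor from the 5 TAC hearts was met in 11 genes (0.0778%), 3 higher (0.0212%) and 8 lower (0.0566%). Over the 4368 splits of these hearts, the chance of complete separation in either direction is 0.000458 for a gene that does not differ. Some of the 14135 genes tested would thus separate if none differed, and the count of 11 was not tested against that chance. None of the 11 genes was called by edgeR, and DESeq2 called Stmn2 and Atp6v1c1 among them. Beside Stmn2, Atp6v1c1, Gins4, Ruvbl1 and Chtf18, these were the transcription factor Deaf1 (0.28) and BC020402 (0.39) at higher levels, and Orc6 of the origin recognition complex (-0.28), the Bro1-domain gene Brox (-0.13), the ubiquitin-ribosomal fusion gene Rps27a (-0.14) and the histone chaperone Set (-0.14) at lower levels, named after their values were seen. Orc6 had 3.68 to 4.87 CPM in the 11 inhibitor hearts with a median of 4.51, against 5.22, 5.84, 5.23, 5.16 and 5.20 CPM in TAC hearts. Brox had 59.4 to 67.4 CPM in the 11 inhibitor hearts with a median of 61.3, against 68.1, 68.0, 67.96, 68.5 and 67.6 CPM in TAC hearts, so its lowest TAC heart stood only just above its highest inhibitor heart. Rps27a and Set have near-identical copies elsewhere in the genome, so their counts are uncertain.

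No gene of the targeted pathway passed the test. Pde5a, the target of Sildenafil, had 11.2 ± 0.873 CPM in PDE5A-I hearts, 10.9 ± 1.33 CPM in PDE9A-I hearts and 10.7 ± 1.64 CPM in TAC hearts (SD, n = 5, 6 and 5), with a pooled log2 fold change of 0.046 (95% interval -0.14 to 0.24). Pde9a, the target of PF-04449613, had 2.36, 2.58, 4.56, 5.12 and 2.39 CPM in PDE5A-I hearts, between 1.49 and 3.77 CPM with a median of 2.03 CPM in the 6 PDE9A-I hearts, and 4.53, 2.92, 3.34, 4.63 and 2.62 CPM in TAC hearts. That put 7 of 11 inhibitor hearts below the lowest TAC heart and 1 above the highest, and the log2 fold change of -0.33 (95% interval -0.82 to 0.16, adjusted p = 0.663) did not pass. A drug that blocks an enzyme need not alter its transcript, so these values do not check the labels. Prkg1, protein kinase G, had a log2 fold change of -0.017 (95% interval -0.16 to 0.12) and Npr1, the receptor of atrial and brain natriuretic peptide, 0.064 (-0.13 to 0.26). For these 4 genes the exact two-sided permutation p over 11 against 5 hearts was 0.565, 0.176, 0.835 and 0.517, where the smallest possible is 0.000458.

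Of 32 listed genes of the cyclic GMP pathway 31 were tested, 0 passed, and 19 were above and 12 below 0, with a median of 0.046 beside 0.0054 for all genes. At an unadjusted p under 0.05 stood Furin, the protease that matures natriuretic peptide precursors (77.01 ± 10.9 CPM in inhibitor hearts and 64.9 ± 6.64 CPM in TAC hearts; 0.25), Mrvi1, a protein kinase G substrate on calcium stores (14.4 ± 1.76 CPM in inhibitor hearts and 12.05 ± 1.83 CPM in TAC hearts; 0.25), the C-type natriuretic peptide receptor Npr2 (0.16) and neuronal nitric oxide synthase Nos1 (1.41) on the higher side, and the phosphodiesterase Pde1c (-0.30) on the lower side. All 5 had adjusted p = 0.556 (edgeR). The last 3 were named after their values were seen. The 4 higher genes were 12.9% of those tested and the 1 lower gene 3.23%, against 4.2% and 4.68% of all genes. Nos1 averaged 0.589 CPM in inhibitor hearts and 0.231 CPM in TAC hearts, so few counts lie behind its fold.

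Genes of the fetal and hypertrophic programme, which the adult ventricle takes up again under load, were lower on average but spread widely in both groups. Nppa, atrial natriuretic peptide, had 1004, 544, 1192, 3748 and 1019.8 CPM in PDE5A-I hearts, between 268 and 3089.6 CPM with a median of 532 CPM in the 6 PDE9A-I hearts, and 3574, 409, 4542, 4078 and 981 CPM in TAC hearts. TAC hearts 2 and 5 lay among the inhibitor hearts, 3 inhibitor hearts were below every TAC heart, and PDE5A-I heart 4 and PDE9A-I heart 3 were near the 3 high TAC hearts. The log2 fold change was -1.16 (SE 0.587, 95% interval -2.38 to 0.065, adjusted p = 0.573; exact permutation p = 0.123). Myh7, the beta myosin heavy chain, had 380.1, 419.8, 3386, 5714 and 6931 CPM in PDE5A-I hearts, between 432 and 9100.1 CPM with a median of 2351 CPM in the 6 PDE9A-I hearts, and 6046, 2783, 8669.8, 7648 and 3577 CPM in TAC hearts, with 5 of 11 inhibitor hearts below every TAC heart, 1 above every TAC heart, and a log2 fold change of -0.81 (SE 0.603, adjusted p = 0.669; exact permutation p = 0.0971).

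Nppb, brain natriuretic peptide, averaged 757 ± 279.7 CPM in PDE5A-I hearts, 433 ± 214 CPM in PDE9A-I hearts and 760.3 ± 359 CPM in TAC hearts, so that the log2 fold changes were -0.0058 with PDE5A-I and -0.81 with PDE9A-I. Its pooled value was -0.39, and -0.15 without TAC library 4. The difference between inhibitors had an unadjusted p = 0.0335 and an adjusted p = 0.434 (edgeR) and did not pass. Skeletal alpha-actin Acta1 had a pooled value of 0.050 (SE 0.513), made of 0.42 with PDE5A-I and -0.35 with PDE9A-I, and turned sign when any of 6 single libraries was left out. Alpha myosin heavy chain Myh6, the adult isoform, was 0.31 (SE 0.169, adjusted p = 0.584), and 0.18 without TAC library 4. Of 16 listed programme genes 14 were tested, 0 passed and 13 were below 0, with a median of -0.45; the median was -0.25 with PDE5A-I and -0.83 with PDE9A-I, both against the same TAC hearts. Without TAC library 4 the pooled median was -0.21, with 11 of 14 below 0. The 2 members with the lowest p were Nmrk2, nicotinamide riboside kinase (-1.83, SE 0.728), and the actin-binding intercalated disc gene Xirp2 (-0.69, SE 0.302). Nmrk2 had 3.35 to 94.98 CPM in the 11 inhibitor hearts with a median of 16.97, against 24.98, 3.91, 80.5, 283 and 17.1 CPM in TAC hearts, and TAC heart 4 alone set most of its TAC mean. Without that library Nmrk2 was -0.46 and Xirp2 -0.45.

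**Figure D3:**
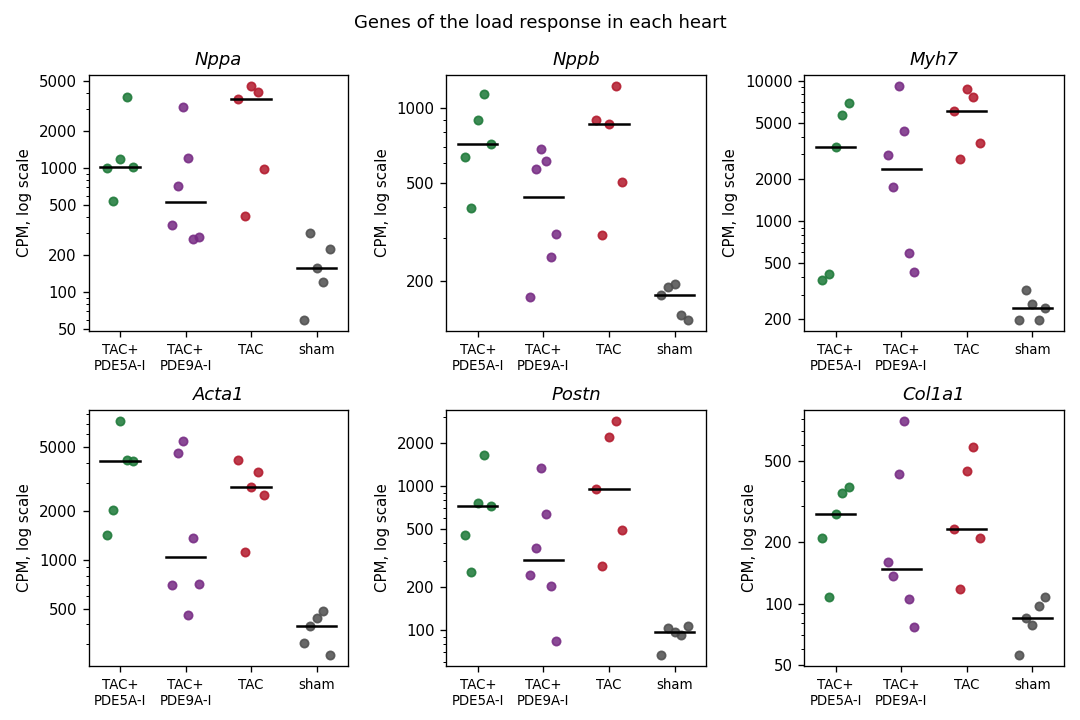
CPM on a log axis in each heart for Nppa, Nppb, Myh7, Acta1, Postn and Col1a1; points are animals and lines are group medians, for PDE5A-I, PDE9A-I, TAC and sham hearts. Inhibitor and TAC hearts overlap in all 6 genes, and for Nppa PDE9A-I hearts reach from the sham range to the TAC range, with 268 to 3089.6 CPM against 409 to 4542 CPM in TAC hearts.

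Matrix genes showed the same pattern of lower averages within a wide spread. Postn, periostin of activated fibroblasts, had 457, 253, 764, 1643 and 720.0 CPM in PDE5A-I hearts, between 83.3 and 1322 CPM with a median of 306 CPM in the 6 PDE9A-I hearts, and 952, 279, 2187, 2812 and 497 CPM in TAC hearts. The 4 lowest inhibitor hearts were below every TAC heart and none was above the range, and the log2 fold change was -1.14 (SE 0.532, 95% interval -2.25 to -0.035, adjusted p = 0.556; exact permutation p = 0.133). Without TAC library 4, the highest for Postn, it was -0.68. Spp1, osteopontin, had 2.94, 1.67, 2.12, 3.74 and 4.16 CPM in PDE5A-I hearts, between 0.377 and 6.90 CPM with a median of 1.71 CPM in the 6 PDE9A-I hearts, and 4.26, 1.57, 10.7, 16.98 and 5.04 CPM in TAC hearts, a log2 fold change of -1.54 (SE 0.464, 95% interval -2.50 to -0.57, adjusted p = 0.556). Within the ear tag series of the 100s, with 1 inhibitor heart (PDE9A-I heart 1) and 2 TAC hearts, Spp1 was 0.16, on the other side of 0 from the values of -2.31 and -2.23 in the 500s and 600s, and over all series it was -1.02 without TAC library 4. Timp1, an inhibitor of matrix proteases, was -1.22 (SE 0.492), and -0.51 without TAC library 4.

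The fibrillar collagen gene Col1a1 averaged 273 ± 207 CPM in inhibitor hearts and 317 ± 192 CPM in TAC hearts (-0.22, 95% interval -1.15 to 0.72) and was 0.13 without TAC library 4. Of 38 matrix genes tested 0 passed and 36 were below 0, with a median of -0.37, or -0.31 with PDE5A-I and -0.47 with PDE9A-I. An unadjusted p under 0.05 was met by 7, all lower (18.4%, against 4.68% of all genes on that side). Without TAC library 4 the pooled median was -0.19, with 31 of 38 below 0. Among 22 genes of TGF-beta signalling 19 were below 0 with a median of -0.099; the ligand Tgfb2, one of those with the lowest p, was -0.62 (SE 0.323). Without TAC library 4 that list had 12 of 22 below 0 with a median of -0.032, and Tgfb2 was -0.25. The 10 activated fibroblast markers were lower beside them: 9 of 10 were below 0 with a median of -0.59, or -0.34 without TAC library 4, and their summed level was 287 to 3245 CPM in inhibitor hearts, 810.2 to 5305 CPM in TAC hearts and 221 to 325 CPM in sham hearts. In bulk tissue fewer cells of a type and less RNA per cell cannot be told apart.

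Genes of calcium handling were higher on average in inhibitor hearts. Atp2a2, the calcium pump SERCA2a of the sarcoplasmic reticulum, had 14560.4, 13576, 12693, 10571 and 13520.5 CPM in PDE5A-I hearts, between 10568 and 19474 CPM with a median of 14319 CPM in the 6 PDE9A-I hearts, and 10346, 14295, 9432, 6995 and 13174 CPM in TAC hearts. In 4 inhibitor hearts it exceeded every TAC heart, and the log2 fold change was 0.35 (SE 0.153, 95% interval 0.030 to 0.67, adjusted p = 0.556; exact permutation p = 0.0568), or 0.22 without TAC library 4. Jph2, junctophilin, which holds the calcium release units to the surface membrane, had 438 to 577 CPM in the 11 inhibitor hearts with a median of 533, against 467, 431, 427, 448 and 489 CPM in TAC hearts, with 8 of 11 above every TAC heart (0.19, SE 0.0665). The potassium channel gene Kcnk3 was 0.29 (SE 0.125). Of 23 genes in the list 0 passed and 17 were above 0, with a median of 0.19, 0.035 with PDE5A-I and 0.26 with PDE9A-I. An unadjusted p under 0.05 was met by 4, all higher (17.4%, against 4.2% of all genes on that side).

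Sarcomere genes had a median of 0.098, with 14 of 18 above 0, led by the Z-disc gene Ldb3 (1043 ± 107 CPM in inhibitor hearts and 923 ± 55.02 CPM in TAC hearts; 0.18). The list of calcineurin, NFAT and MEF2, the calcium-dependent hypertrophic pathway and its transcription factors, had 13 of 17 above 0 with a median of 0.095; Mef2d (0.26, SE 0.0865) and Camta2 (0.33, SE 0.113) had its lowest p. With PDE5A-I the medians of the sarcomere and calcineurin lists were 0.0092 and 0.013, and with PDE9A-I they were 0.13 and 0.17. Of the sarcomere genes 9 of 18 were above 0 with PDE5A-I and 14 of 18 with PDE9A-I. Neither list had a member that passed, and without TAC library 4 their pooled medians were 0.023 and 0.053.

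Genes of mitochondrial energy supply shared small positive values. Nuclear genes of oxidative phosphorylation were above 0 in 33 of 33 with a median of 0.074, those of the tricarboxylic acid cycle in 18 of 18 with a median of 0.13, and those of fatty acid uptake and oxidation in 26 of 28 with a median of 0.18; over all genes 7326 of 14135 (51.8%) were above 0. Without TAC library 4, 25 of 33, 16 of 18 and 26 of 28 were above 0, and the medians were 0.017, 0.058 and 0.082. Not one of these 79 genes passed, and none had an unadjusted p under 0.05. Their lowest p were those of Acot2, a mitochondrial thioesterase (88.8 ± 19.2 CPM in inhibitor hearts and 69.9 ± 26.6 CPM in TAC hearts; 0.35, SE 0.191), the carnitine palmitoyltransferase gene Cpt2 (0.26, SE 0.149), Ogdh (0.20) and Dlst (0.18) of the oxoglutarate dehydrogenase complex, Cyc1, cytochrome c1 (0.15), and Sdha of succinate dehydrogenase (0.18). Without TAC library 4 Acot2 was 0.20, Cpt2 0.14, Cyc1 0.095 and Sdha 0.099. Members of a list share the same 16 hearts and are not replicates of one another.

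Regulators of these genes, the PGC-1 coactivators with the PPAR, ERR and RXR receptors, were also higher on average. Of 15 tested 14 were above 0 with a median of 0.16, and 5 (33.3%) had an unadjusted p under 0.05, against 4.2% of all genes on the higher side: Ppargc1b, the retinoid receptor Rxra (0.25, SE 0.0885), Ppara, the fatty acid receptor (0.34, SE 0.133), Rxrb (0.16) and the oestrogen-related receptor Esrrb (0.22), the last 3 named after their values were seen. Their adjusted p were 0.412 for Ppargc1b and 0.556 for the other genes (edgeR). Rxra had 64.2 to 104 CPM in the 11 inhibitor hearts with a median of 77.5, against 64.4, 78.8, 61.2, 56.4 and 72.9 CPM in TAC hearts, so 6 of 11 inhibitor hearts lay within the TAC range. The median of the list was 0.098 with PDE5A-I and 0.21 with PDE9A-I, and 0.10 in the pooled comparison without TAC library 4.

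**Figure D4:**
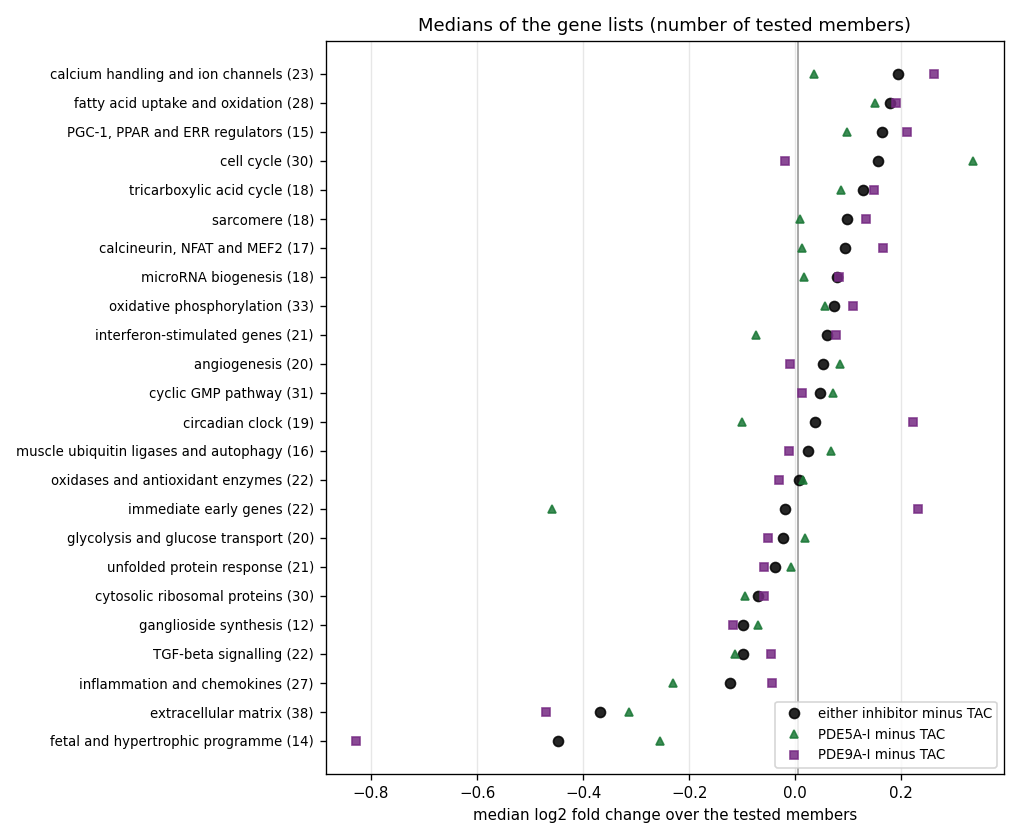
Median log2 fold change over the tested members of each of 24 pathway lists, for either inhibitor (black circles), PDE5A-I (green triangles) and PDE9A-I (purple squares), each minus TAC; the grey line is the median of all genes in the pooled comparison. All 3 comparisons share the 5 TAC hearts. Fetal and matrix genes lie lowest, at -0.45 and -0.37, and the marks of both drugs part most for the immediate early genes.

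In several lists the medians of the inhibitors lay on opposite sides of 0. Immediate early genes, which cells transcribe within minutes of a stimulus, had a pooled median of -0.019, with -0.46 in PDE5A-I hearts and 0.23 in PDE9A-I hearts. That pooled median was -0.29 without PDE9A-I library 1 and 0.13 without TAC library 2. For circadian clock genes, whose levels follow the time of day, the medians were 0.037 pooled, -0.10 with PDE5A-I and 0.22 with PDE9A-I, led by Per1 (0.61, SE 0.305; 0.14 with PDE5A-I and 0.91 with PDE9A-I). Within the ear tag series of the 100s, where PDE9A-I heart 1 is the only inhibitor heart, Per1 was 1.48. In the 500s and 600s Per1 was 0.59 and 0.51. Cell cycle genes had medians of 0.16 pooled, 0.34 with PDE5A-I and -0.019 with PDE9A-I. Cenpf, a kinetochore gene, had 11.7 to 96.5 CPM in the 11 inhibitor hearts with a median of 17.5, against 11.9, 14.3, 10.3, 8.90 and 7.79 CPM in TAC hearts; its log2 fold change was 1.24 (SE 0.467, adjusted p = 0.556), and 0.77 without PDE9A-I library 6, which held the highest value. The pooled median of cell cycle genes was 0.35 without TAC library 4 and 0.033 without TAC library 2. Inhibitor and sham hearts differed for Cenpf in the other direction, where it fell by 1.36 on the log2 scale (adjusted p = 0.0312, edgeR).

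Other lists had no member that passed. Cytosolic ribosomal protein genes were below 0 in 28 of 30 with a median of -0.070; Rpl30 (-0.40) and Rpl3 (-0.41) led them (without TAC library 4, -0.19 and -0.26), and such genes have many near-identical copies that can share reads. Inflammation and chemokine genes had 16 of 27 below 0 with a median of -0.12; galectin-3, Lgals3, had 3.18 to 23.9 CPM in the 11 inhibitor hearts with a median of 5.73, against 9.001, 5.34, 22.9, 57.7 and 7.07 CPM in TAC hearts (-1.36, SE 0.478), and P-selectin, Selp, was -0.99. Without TAC library 4 Lgals3 was -0.48, Selp -0.59 and the median of the list 0.038. Within the ear tag series of the 100s, 500s and 600s Lgals3 was 0.26, -1.63 and -1.96, so the 100s lay on the other side of 0. The median was -0.038 for the unfolded protein response (Dnajb11 -0.16, Pdia3 -0.16), 0.060 for interferon-stimulated genes (Ifi27 0.20, Ifi35 0.13) and 0.053 for angiogenesis (Hif1a -0.29, Angpt2 0.31). With PDE5A-I and PDE9A-I it was -0.074 and 0.078 for interferon-stimulated genes, and 0.084 and -0.0089 for angiogenesis. Without PDE9A-I library 1 the pooled interferon median was -0.045. The pooled median was -0.023 for glycolysis (Hk1 -0.25, Pgk1 -0.18), 0.0078 for oxidases and antioxidant enzymes (Gpx1 -0.23, Sod2 0.20) and 0.024 for ubiquitin ligases and autophagy (Map1lc3a 0.20, Becn1 -0.12). In these lists too the medians of the inhibitors lay on opposite sides of 0. The list for microRNA biogenesis had a median of 0.080, led by Tnrc6c (0.27) and Kdm6b (0.48). Kdm6b encodes a histone demethylase and is not itself a gene of microRNA biogenesis. Ganglioside synthesis had a median of -0.098, led by St8sia1 (1.56) and B4galt5 (-0.33).

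Markers of blood cells differed on average between the groups. All 10 erythroid markers were above 0 with a median of 0.57, 5 of them at an unadjusted p under 0.05 (50%, against 4.2% of all genes on that side) and none called. With a term for ear tag series their median was 0.30. Their summed level was 524 to 1451 CPM in inhibitor hearts, 461 to 799.9 CPM in TAC hearts and 553 to 1529 CPM in sham hearts. The globin genes of the list have near-identical copies. The part of blood left in the tissue in other results was not tested. B cell markers were below 0 in 5 of 5 tested, with a median of -0.35, but the groups parted: the median was 0.20 with PDE5A-I and -1.32 with PDE9A-I, and the summed level was 4.20 to 6.85 CPM in PDE5A-I hearts, 1.34 to 2.63 CPM in PDE9A-I hearts, 3.92 to 6.56 CPM in TAC hearts and 1.51 to 3.40 CPM in sham hearts. Cd79a was -0.82 (SE 0.303) in the pooled comparison, at 0.152 to 0.632 CPM of Cd79a in inhibitor hearts. As given above, Cd79a was -0.28 with PDE5A-I and -1.62 with PDE9A-I. T cell markers had 4 of 5 above 0 with a median of 0.80, with Lck (0.80) at most 0.947 CPM and Cd8a (0.82) at most 1.21 CPM in any inhibitor heart. The summed level of 7 T cell markers overlapped, at 6.03 to 9.47 CPM in inhibitor hearts and 5.88 to 8.60 CPM in TAC hearts.

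**Figure D5:**
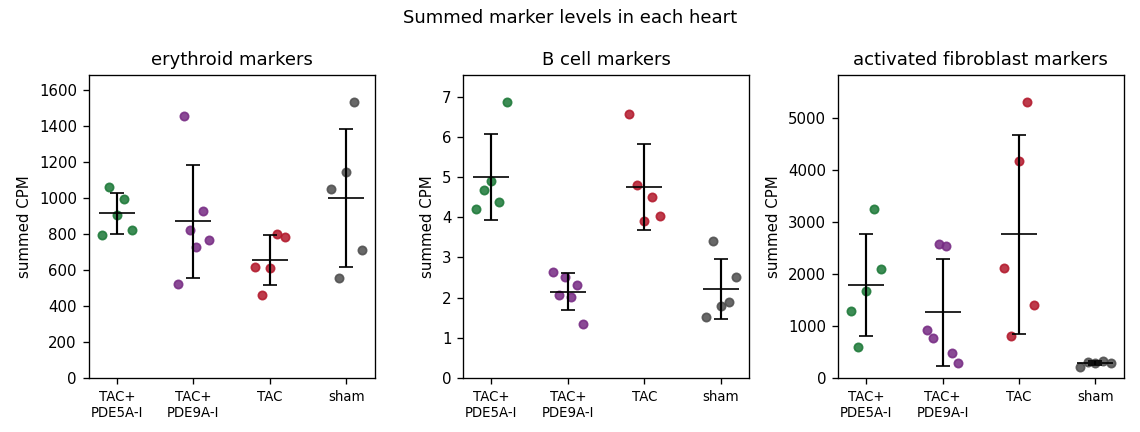
Summed CPM of the 10 erythroid, 6 B cell and 10 activated fibroblast markers in each heart; points are animals and bars the mean and SD, for PDE5A-I, PDE9A-I, TAC and sham hearts, with axes from 0. B cell markers part the PDE5A-I hearts (4.20 to 6.85 CPM) from the PDE9A-I hearts (1.34 to 2.63 CPM), whereas the erythroid and fibroblast markers overlap between all overloaded groups.

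The remaining marker lists are given by their median and their members with the lowest p. The median was 0.11 for cardiomyocytes (Ryr2 0.26), -0.18 for fibroblasts (Mfap5 -0.74, Pi16 -0.44), -0.010 for endothelial cells (Vwf -0.28, Kdr 0.12) and -0.025 for endocardium (Nrg1 -0.38). It was 0.052 for smooth muscle (Des -0.37, Smtn 0.14), 0.052 for pericytes (Abcc9 0.31, Kcnj8 0.14) and -0.057 for macrophages (Cd163 0.26, Fcgr1 -0.25). Neutrophil markers had -0.017 (S100a8 -0.45, S100a9 -0.42), Schwann cell markers 0.33 (Gfra3 0.97, Kcna1 0.84), adipocyte markers 0.17 (Pnpla2 0.22, Fabp4 0.17), brown adipocyte markers -0.016 (Cidea -0.22, Dio2 -1.16), skeletal muscle markers 0.086 (Ckm 0.20, Tnni2 0.19) and the 2 tested mesothelial markers 0.19 (Wt1 0.12, Krt8 0.25). Des and Ckm are also genes of heart muscle, so their values do not single out smooth or skeletal muscle. The list of atrial markers had a median of 0.46 with 5 of 5 above 0 (Myh7b 0.46, Stard10 0.44). The 8 listed summed to 49.5 to 131 CPM in inhibitor hearts, 32.8 to 83.9 CPM in TAC hearts and 97.4 to 108 CPM in sham hearts. The defining atrial genes Sln, sarcolipin, and Myl7, the atrial light chain, were removed by the filter on low counts. PDE9A-I library 1 held 68 counts of Sln and 335 of Myl7, against at most 5 and 6 in the other inhibitor libraries and 3 and 6 in TAC libraries. Sham libraries held at most 1 and 13, though their median list sum was the highest of the groups, at 104 CPM. The values of the 5 tested members are thus no check for atrium in the dissection. Without PDE9A-I library 1 the pooled comparison again called 0 genes, and the part of atrial tissue in other results was not tested. At least 1 marker of the atrial, adipocyte, brown adipocyte and Schwann cell lists was at 0 in every heart of a group. No member of these lists passed the pooled test.

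Against sham, a comparison that uses no TAC library, many genes differed in hearts with an inhibitor too. In inhibitor hearts 2244 genes (15.9%) were called against sham, 1096 higher (7.75%) and 1148 lower (8.12%), beside 3457 (24.5%) in TAC hearts, 1692 higher (12%) and 1765 lower (12.5%). These counts come from 11 and 5 libraries and share the sham hearts, so they are set side by side and not tested against each other. The count for inhibitor hearts was 1423 without PDE9A-I library 3, the one library that moved it by over 1.5 times, and 229 when the fit held a term for ear tag series. The count for TAC hearts was 1717 without TAC library 4, where that for inhibitor hearts was 2402, and 1918 without TAC library 3. By drug, 2066 genes (14.6%) were called with PDE5A-I and 540 (3.82%) with PDE9A-I. These counts by drug were not recomputed without single libraries or with a term for ear tag series. They were not tested against each other, and the direct comparison of the inhibitors called 1 gene (0.00707%).

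Nppa, Nppb, Myh7, Acta1, Col1a1 and Postn rose in inhibitor hearts against sham, by 2.83, 1.78, 3.75, 2.97, 1.69 and 2.70 on the log2 scale (adjusted p = 0.0171, 0.00865, 0.00796, 0.00789, 0.0290 and 0.0141, edgeR). The corresponding values in TAC hearts were 3.98, 2.16, 4.56, 2.92, 1.90 and 3.85. Prkg1 rose by 0.33 in inhibitor hearts (adjusted p = 0.00796) and 0.35 in TAC hearts (adjusted p = 0.00646). Atp2a2 fell in both, with -0.51 (adjusted p = 0.0271) and -0.86 (adjusted p = 0.00425). Myh6 was -0.41 in inhibitor hearts and did not pass (adjusted p = 0.0872), whereas in TAC hearts it fell by 0.72 (adjusted p = 0.0139); the difference between these, 0.31, did not pass either, as given above. With a term for ear tag series, where the 500s hold no sham heart, only Myh7 (3.72, adjusted p = 0.0443) and Prkg1 (0.37, adjusted p = 0.0426) of these 8 genes called in inhibitor hearts still passed. Nppa, Nppb, Acta1, Col1a1, Postn and Atp2a2 did not, with values such as 2.40 for Nppa, 1.56 for Nppb, 2.82 for Acta1, 2.14 for Postn and -0.42 for Atp2a2, with adjusted p between 0.0548 and 0.210. In TAC hearts all 9 genes passed with that term.

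By list, 10 of 14 tested fetal and hypertrophic genes rose in inhibitor hearts against sham, and 13 in TAC hearts against sham, where 7.75% and 12% of all genes rose. Of matrix genes 28 of 38 rose in inhibitor hearts and 36 in TAC hearts, and 9 of 10 activated fibroblast markers rose in each. Among genes of oxidative phosphorylation 26 of 33 fell in inhibitor hearts and 32 in TAC hearts, where 8.12% and 12.5% of all genes fell. For fatty acid uptake and oxidation 8 of 28 fell in inhibitor hearts and 24 in TAC hearts, for the tricarboxylic acid cycle 6 of 18 and 14, and for the PGC-1, PPAR and ERR regulators 1 of 15 and 7. Of calcium handling and ion channel genes 9 of 23 fell in inhibitor hearts and 13 in TAC hearts. With a term for ear tag series the counts of inhibitor hearts were 2 of 14 fetal and hypertrophic, 7 of 38 matrix and 3 of 10 activated fibroblast genes that rose, and 0 of the oxidative phosphorylation, fatty acid, tricarboxylic acid cycle, regulator and calcium handling genes fell. Those of TAC hearts were 12, 32 and 9 that rose, and 30, 19, 11, 6 and 12 that fell. Over all 14135 genes with that term, 140 rose and 89 fell in inhibitor hearts, and 1331 rose and 1372 fell in TAC hearts. Without TAC library 4 the order of the counts turned over all genes and in most, but not all, of these lists. It did not turn for the regulators, where 1 fell in inhibitor hearts and 4 in TAC hearts. Of the activated fibroblast markers 9 rose in each. Of the 14135 genes, 1208 rose and 1182 fell in inhibitor hearts, against 910 and 802 in TAC hearts. By list, 11 fetal and hypertrophic and 29 matrix genes rose in inhibitor hearts, against 10 and 24 in TAC hearts. In inhibitor hearts 28 oxidative phosphorylation, 15 fatty acid, 8 tricarboxylic acid cycle and 10 calcium handling genes fell, against 15, 10, 6 and 7 in TAC hearts. A gene called in TAC hearts and not in inhibitor hearts is not shown to differ between them: the pooled comparison tests that difference itself, and it called none.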

How the data were processed

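Left ventricle RNA libraries from 500 ng of total RNA were stranded, per the labels' protocols. The authors deposited 1 table of RSEM expected counts per gene symbol, not scaled between libraries: 24054 rows, 27 of them dates in place of symbols, and 19.0% of values not whole. The submitters' processing notes list the mm10 build, RSEM 1.3.0, HISAT2 2.0.5, CASAVA 1.8.4 and DESeq2 1.18.1 without saying what each did. Expected counts were rounded. filterByExpr by the 4 groups kept 14135 genes. Libraries were scaled by TMM, and edgeR 4.0.16 (R 4.3.3) fitted robust quasi-likelihood models to all 21 libraries, with sham, TAC and the pooled inhibitor group, or with the 4 label groups. Adjustment over all genes followed Benjamini and Hochberg, and a gene was called, and "rose" or "fell" written of it, at an adjusted p under 0.05. P-values set a difference against the spread between animals, which in the pooled inhibitor group also holds any difference between the drugs. DESeq2 1.42.0 was an alternative. The code was tested on simulated counts. Levels are CPM after TMM scaling, given as mean ± SD; fold changes are log2 values, and differences within an ear tag series are of log2 CPM with a prior count of 2. Named were 12 fixed genes, the 10 lowest p in each direction with at least 1 CPM and no predicted-gene symbol, and the 2 lowest p of each of 42 lists; other names are said to be chosen after their values were seen; a few genes named this way were left out of the text. Members and lists were chosen with earlier results of these data known. Coordinates are of GENCODE M21 (GRCm38).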

Additional observations from a re-analysis of the deposited data

Results flagged for a closer look

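Single hearts that stood far from the rest of their own group were sought in 119 named genes with Dixon's criterion on log2 CPM, in 357 sets of 5 or 6 hearts. It picked out 16, where chance alone picks about 1 in 20 sets. The values below bear on genes of the comparison, and no cause was tested.

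Among the inhibitor hearts, Ppargc1b was low in PDE9A-I heart 2, at 25.3 CPM, against 33.2 to 38.02 CPM in the other hearts of its group, and this was the one inhibitor heart within the TAC range. The same heart was high for Brox, at 67.4 CPM, against 59.4 to 61.3 CPM. Prkg1 was low in PDE9A-I heart 6, at 36.5 CPM, against 42.1 to 45.1 CPM. Desmin, Des, was high in PDE9A-I heart 3, at 3713 CPM, against 1866 to 2287 CPM. The libraries with the highest Rn45s shares were high for Ifi35 in PDE9A-I heart 1, at 23.9 CPM, against 14.7 to 15.8 CPM, and for Pdia3 in PDE9A-I heart 4, at 134 CPM, against 109 to 117 CPM. In the PDE5A-I group, B4galt5 was high in heart 4, at 28.6 CPM, against 15.9 to 18.4 CPM, and Cd79a low in heart 2, at 0.339 CPM, against 0.547 to 0.632 CPM.

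Among the TAC hearts, heart 2 was high for Orc6, at 5.84 CPM, against 5.16 to 5.23 CPM, for Rps27a, at 162 CPM, against 152 to 154 CPM, and for Kdm6b, at 13.1 CPM, against 7.99 to 9.001 CPM, and low for Ccnb2, at 0.180 CPM, against 0.687 to 1.08 CPM. Heart 4 was high for Furin, at 76.7 CPM, against 60.9 to 63.7 CPM, and for Rpl30, at 11.3 CPM, against 5.97 to 7.04 CPM. Heart 5 was low for Tmem55a, at 31.1 CPM, against 33.7 to 34.7 CPM, and heart 1 high for Cd79a, at 0.893 CPM, against 0.556 to 0.624 CPM.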

How the results depend on the processing

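The pooled comparison called 0 genes in either direction under every edgeR alternative run, and genes common to both inhibitors were 0 under every alternative; DESeq2 called 1 higher and 2 lower in the pooled comparison. The lowest adjusted p lay between 0.0634 and 0.980 over the leave-one-out fits. Of 2975 recomputed values of 119 named genes 2950 kept their direction and side of the threshold, 22 turned sign and 3 passed under DESeq2 (Stmn2, Ppargc1b and Atp6v1c1). None of the 119 had passed in the pooled edgeR comparison, so to keep its side a value had only to stay uncalled, whatever its size. With a term for ear tag series Acta1 was -0.050 and Prkg1 0.0033; with the replicate block they were -0.063 and 0.0017; Krt8 was -0.012 without PDE9A-I libraries 1 and 4. Leave-one-out values ran from -0.18 to 0.23 for Acta1, -0.51 to 0.13 for Col1a1, -0.0037 to 0.12 for Pde5a, -0.047 to 0.012 for Prkg1, -0.45 to 0.073 for Ier3, -0.66 to 0.17 for Nrg1, -0.63 to 0.19 for S100a9 and -0.038 to 0.44 for Krt8.

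Called genes for PDE5A-I against TAC, PDE9A-I against TAC and PDE5A-I against PDE9A-I numbered 2, 1 and 1. They were 0, 0 and 2 in the 16 libraries without sham, and 8, 33 and 35 by DESeq2. With a term for ear tag series the first was 1 and the second 0, with the replicate block they were 1, 0 and 0, and without PDE9A-I libraries 1 and 4 the second was 0 and the last 2. Without a filter on low counts the second was 0. Leave-one-out counts ran from 0 to 2, 0 to 46 and 1 to 8. Against sham, inhibitor hearts had 229 called genes with a term for ear tag series, 3460 with the replicate block and 1423 to 3239 over the leave-one-out fits, and TAC hearts 1717 to 4328. The cause of these moves was not tested.

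The labels' groups share replicate numbers, and nothing in the labels says that a number marks a shared animal or day. Within each group the numbers follow the order of the ear tags, so same-numbered hearts can share an ear tag series. Over all groups, deviations of same-numbered hearts correlated with a median of 0.020, against -0.017 between other numbers, which ran from -0.50 to 0.49. Same-numbered TAC and inhibitor hearts ran from -0.16 to 0.56, with a median of 0.22, and other numbers were not taken for those groups alone. These values do not decide on a block. The fits without the block were kept. The pooled comparison with the block called 0 genes and had 1059 at an unadjusted p under 0.05 (edgeR). Leaving out 1 library moved the values of 52 of the 119 named genes by over 1.5 times, 40 of them without TAC library 4 and 16 without TAC library 2. With 5 TAC hearts and a median standard error of 0.10 on the log2 scale, a difference of that size was not detectable, and load genes have wider intervals. The fit to 16 libraries gives no value against sham.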
